A study of Mus musculus with 7 samples.

Results

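Interleukin receptors are built from chains that pair at the cell surface, and each chain is encoded by its own gene. The rows described here are the gene symbols that begin with Il, a number and r, without the antagonist Il1rn, plus Il6st, the gp130 chain. This gave 25 chains among 14594 gene rows, chosen by name and not by level. RNA had been read from cortical microglia, the resident macrophages of the brain, of 12-week-old C57BL/6 mice. All animals carried the same 3 alleles: Cx3Cr1GFP/+, which labels microglia and related myeloid cells green, Hoxb8IRES-Cre/+, and ROSA26CAG-LSL-tdTomato/+, a red reporter that Cre switches on for good. The Hoxb8 group (HoxB8tdTom_Cx3Cr1-GFP in the labels, 3 libraries) held sorted cells with both colours, that is, descendants of cells in which the Hoxb8 locus had driven Cre. The non-Hoxb8 group (Cx3Cr1-GFPonly, 4 libraries) held green cells without red, and a precursor that escaped Cre would also fall there. The labels name 4 animals for the 7 libraries without saying which libraries share an animal, so p-values measure the spread between these libraries. The study set the groups side by side to ask whether microglia of different origin differ.

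As a rule, a receptor answers its cytokine through a chain that binds the ligand and a chain that signals. Many chains are shared: Il6st serves the whole IL-6 family, Il2rg the cytokines of the IL-2 group, Il1rap the IL-1 group and Il17ra the IL-17 group. Most of these receptors signal through JAK kinases and STAT factors, whereas the IL-1 and IL-17 groups use the adaptors Myd88 and Traf3ip2. In microglia, IL-10 receptor signalling is known as a brake on inflammatory activation, and IL-1 and IL-6 receptors as routes by which inflammation reaches the cells.

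Libraries held between 5922972 and 7753577 counts, of which the 25 chains together took between 0.256% and 0.319%. All 10 microglia markers had counts in every library, and their summed level ran from 38037 to 42827 CPM (counts scaled by the TMM-normalised library size) in Hoxb8 libraries and from 33056 to 43338 CPM in non-Hoxb8 libraries. Border macrophage markers, of the macrophages that line vessels and meninges, summed to between 348 and 1531 CPM in Hoxb8 libraries and between 88.7 and 373 CPM in non-Hoxb8 libraries (10 of 10 genes measured, 0 called). Monocyte markers summed to between 309 and 682 CPM in Hoxb8 libraries and between 124 and 202 CPM in non-Hoxb8 libraries (10 of 10 measured, 1 of 8 tested called, the integrin Itga4, with Ly6c2 at 0 in all Hoxb8 libraries). Several libraries stand apart in ways that the groups do not give. Il1b, the inflammatory cytokine IL-1 beta, stood at 26.6, 943 and 8.76 CPM in Hoxb8 replicates 1, 2 and 3, and at 11.1, 408, 5.77 and 8.59 CPM in non-Hoxb8 replicates 1 to 4. The high values are those of libraries 14 and 13, which have adjacent numbers, one in each group. Libraries 21, 22 and 25 held RNA of both Xist, made in female cells, and Y-linked genes (Xist between 8291 and 14318 CPM, 4 Y-linked genes together between 84.7 and 133 CPM), although the labels give no pooling of animals. Libraries 13 and 14 held Y-linked RNA (293 and 269 CPM) with little Xist (23.2 and 15.1 CPM). Libraries 5 and 6 held Xist (22542 and 14953 CPM) with almost no Y-linked RNA (0.41 and 0 CPM). Sex and high Il1b cannot be told apart in libraries 13 and 14, and the part of sex was not tested. Log2 fold changes without libraries 13 and 14, or without libraries 21, 22 and 25, are given below for some of the chains.

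Start regions of 3 chains are shown as examples. Il6ra had the highest mean level per length, and Il7r, like Il21r, is an abundant chain whose partner was scarce. Il1r1 had the lowest p of the 19 chains tested. Each run is the gene strand, 5′ to 3′, from 250 bases before to 50 after a RefSeq start in GRCm38.p6, in lower case with motif matches in capitals. The windows are chr3:89913147-89913446 on the minus strand for Il6ra, chr15:9529827-9530126 on the minus strand for Il7r, and chr1:40266336-40266635 on the plus strand for Il1r1, at the more internal of the 2 Il1r1 starts.
Il6ra: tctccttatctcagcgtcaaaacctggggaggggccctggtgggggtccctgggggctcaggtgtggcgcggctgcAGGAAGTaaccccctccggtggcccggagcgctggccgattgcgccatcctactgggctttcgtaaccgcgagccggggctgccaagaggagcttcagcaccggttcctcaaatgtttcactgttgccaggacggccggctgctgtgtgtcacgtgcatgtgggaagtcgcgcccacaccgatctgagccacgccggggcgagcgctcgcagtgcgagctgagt
Il7r: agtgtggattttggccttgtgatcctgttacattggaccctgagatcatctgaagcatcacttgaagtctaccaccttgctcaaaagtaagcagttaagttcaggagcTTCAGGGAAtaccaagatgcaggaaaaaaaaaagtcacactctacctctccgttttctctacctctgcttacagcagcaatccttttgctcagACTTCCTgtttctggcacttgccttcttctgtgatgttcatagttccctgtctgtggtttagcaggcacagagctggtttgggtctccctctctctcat
Il1r1: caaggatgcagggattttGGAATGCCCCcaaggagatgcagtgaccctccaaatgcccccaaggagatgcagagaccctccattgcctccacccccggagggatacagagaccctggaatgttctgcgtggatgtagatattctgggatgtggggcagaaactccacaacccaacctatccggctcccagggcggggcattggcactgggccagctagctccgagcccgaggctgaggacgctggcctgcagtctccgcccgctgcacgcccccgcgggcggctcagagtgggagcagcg
Motifs were searched on both strands. The capitals in Il6ra are AGGAAGT, the purine box of PU.1 and other ETS factors, which drive macrophage genes. Il7r holds a STAT motif, TTCNNNGAA, and the purine box on the opposite strand, with no overlap between them. Il1r1 holds an NF-kB motif in this window and no match in that of its other start. The purine box occurred in 9.4% of all 32851 windows, the STAT motif in 8.3%, the NF-kB motif in 8.5% and the AP-1 motif TGANTCA in 7.8%. Windows were found for 20 of the 25 chains (24 windows), of which 5 held the purine box, 3 the STAT motif, 4 the NF-kB motif and 2 the AP-1 motif. The 3 windows shown all hold a match, whereas those of Il6st, Il13ra1, Il21r, Il2rg and other chains hold none. A match describes the letters only.

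The chains fell into an abundant set and a scarce set, and the same 9 chains were the highest per length in every library of both groups. Levels between genes are compared per length, as CPM per kilobase of exon (union of exons in GENCODE M21). Il6ra, which binds IL-6, averaged 81.7 ± 20.1 in Hoxb8 libraries (SD, n = 3) and 92.9 ± 28.7 in non-Hoxb8 libraries (SD, n = 4) on this scale. Il10ra, which binds IL-10, averaged 89.0 ± 9.95 in Hoxb8 and 85.8 ± 4.22 in non-Hoxb8 libraries per kilobase. Over all 7 libraries the order was Il6ra (88.1 ± 24.1 per kilobase), Il10ra (87.2 ± 6.70), Il6st (66.4 ± 5.02), Il13ra1 (52.1 ± 5.93), Il21r (39.0 ± 11.4), Il17ra (36.9 ± 2.01), Il7r (30.9 ± 3.71), Il10rb (25.1 ± 4.64) and Il4ra (19.0 ± 3.64). In this set the ranges of neighbours overlapped except between Il10ra and Il6st. A gap followed: the lowest library of Il4ra, at 15.1 per kilobase, was above the highest library of Il15ra, the next chain, at 8.46, and above the highest value of any scarcer chain, 11.8 for Il2rg in Hoxb8 replicate 2. Chains at or below 4.74 per kilobase on average made up the rest, and their ranges overlapped from each chain to the next.

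**Figure D1:**
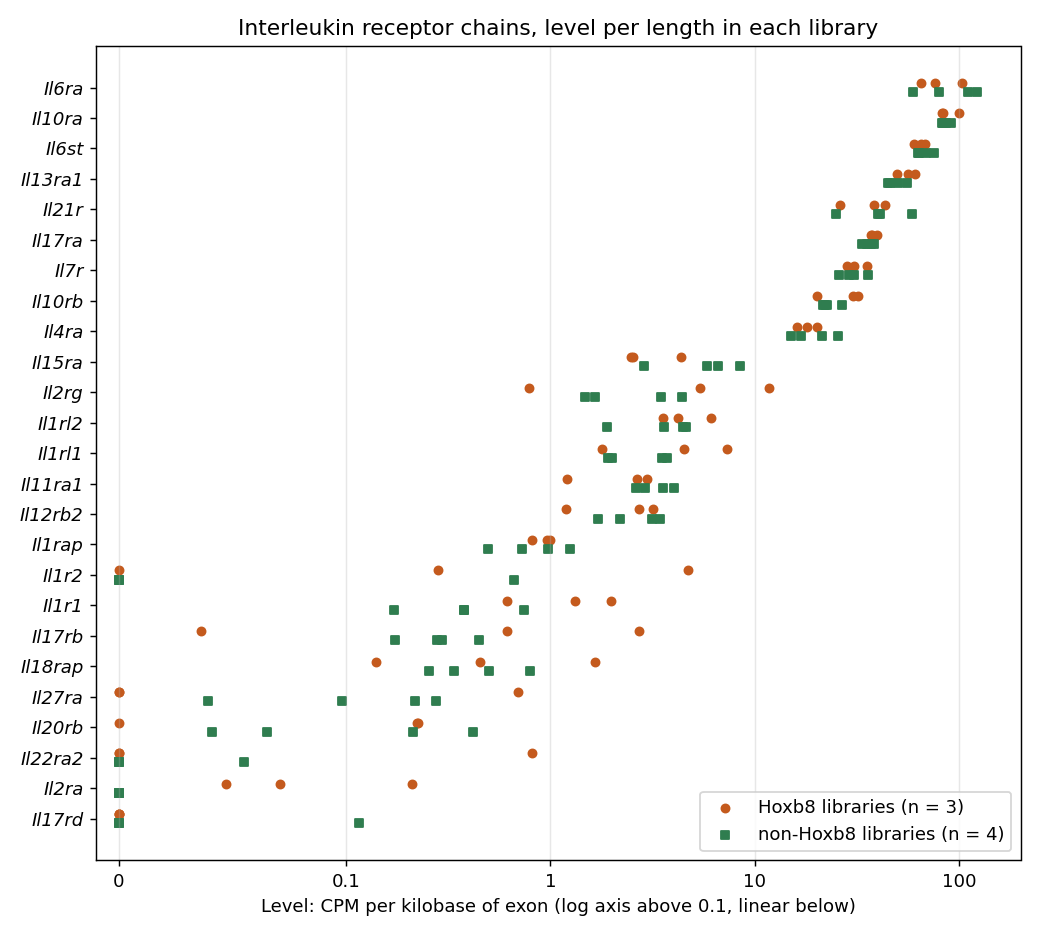
Level of each of the 25 chains in CPM per kilobase of exon (horizontal axis, log above 0.1 and linear below) in each Hoxb8 (circles) and non-Hoxb8 (squares) library. The 9 chains at the top lie at 15.1 or more in every library, and the highest value below them is 11.8, for Il2rg in Hoxb8 replicate 2.

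No chain differed between Hoxb8 and non-Hoxb8 microglia past the test. In edgeR's quasi-likelihood test, 0 of the 19 chains that passed the filter on low counts were called at an adjusted p below 0.05, beside 4 of all 11874 genes tested (0.0337%). When libraries that follow each other in number were fitted as pairs, 0 of the 19 were called, beside 43 genes of the table (0.362%). Library 25 has no adjacent number, so it did not count towards the group difference in that fit. DESeq2 called 0 of the 19, beside 24 genes (0.202%). The lowest adjusted p of any chain was 0.9996 in edgeR. At an unadjusted p below 0.05, 1 chain was higher in Hoxb8 libraries (Il1r1) and 1 lower (Il15ra), beside 1.95% and 1.57% of all genes tested. None of the 19 had groups without overlap, beside 2.48% of all genes that were higher in every Hoxb8 library than in any non-Hoxb8 library and 2.08% that were lower. Log2 fold changes (Hoxb8 over non-Hoxb8) were above 0 for 12 chains and below 0 for 7, with a median of 0.08, against 0.00 over all genes tested. Where a chain's RNA is low in bulk cells, fewer cells with it and less RNA per cell cannot be told apart.

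**Figure D2:**
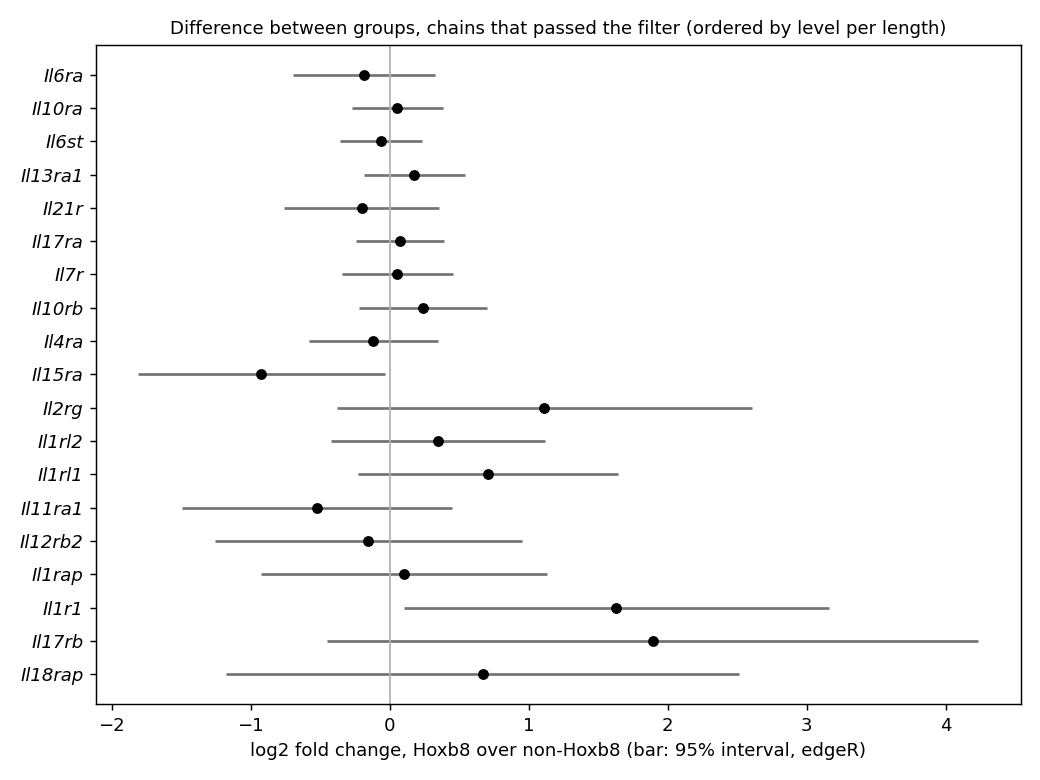
Log2 fold change of the 19 tested chains (points, horizontal axis, Hoxb8 over non-Hoxb8) with 95% intervals (lines), ordered from the highest level per length at the top. The intervals of the 9 abundant chains lie between -0.76 and 0.70, and the widest, that of Il17rb, runs from -0.45 to 4.24.

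How closely the data bound a difference depended on abundance. For the 9 abundant chains the log2 fold changes lay between -0.20 and 0.24, their standard errors between 0.14 and 0.26, and every 95% interval lay within a 2-fold change in either direction. For the 10 scarcer tested chains the standard errors ran from 0.36 to 1.1, and the 95% intervals together reached from -1.81 to 4.24.

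The IL-6 receptor pair was the most abundant ligand-binding and signalling pair. Il6ra stood at 899, 561 and 659 CPM in Hoxb8 replicates 1 to 3 and at 1055, 514, 688 and 956 CPM in non-Hoxb8 replicates 1 to 4. The groups overlapped, and the lowest library of each was that with high Il1b. The log2 fold change was -0.19 ± 0.24 (SE), with a 95% interval from -0.70 to 0.33. In the fit with adjacent libraries as pairs it was -0.06 ± 0.13. Without pairs and without library 25, which the paired fit does not use for the group difference, it was -0.09 ± 0.26. Il6st, the gp130 chain that signals for IL-6 and its relatives, was steadier, at 761, 667 and 727 CPM in Hoxb8 libraries and at 762, 837, 696 and 709 CPM in non-Hoxb8 libraries. Its log2 fold change was -0.06 ± 0.14 (95% interval -0.36 to 0.23). The ratio of Il6ra to Il6st per length was 1.25 ± 0.23 in Hoxb8 libraries (SD, n = 3) and 1.39 ± 0.46 in non-Hoxb8 libraries (SD, n = 4), and ranged from 0.79 in library 13 to 1.78 in library 5. Il11ra1, which binds IL-11 and also signals through gp130, was scarce, at 11.9, 5.40 and 13.3 CPM in Hoxb8 libraries and at 11.8, 13, 15.9 and 18 CPM in non-Hoxb8 libraries (log2 fold change -0.52 ± 0.46, and -0.28 ± 0.50 without libraries 13 and 14). The mouse genome holds near-identical copies of Il11ra1, so its count is uncertain.

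**Figure D3:**
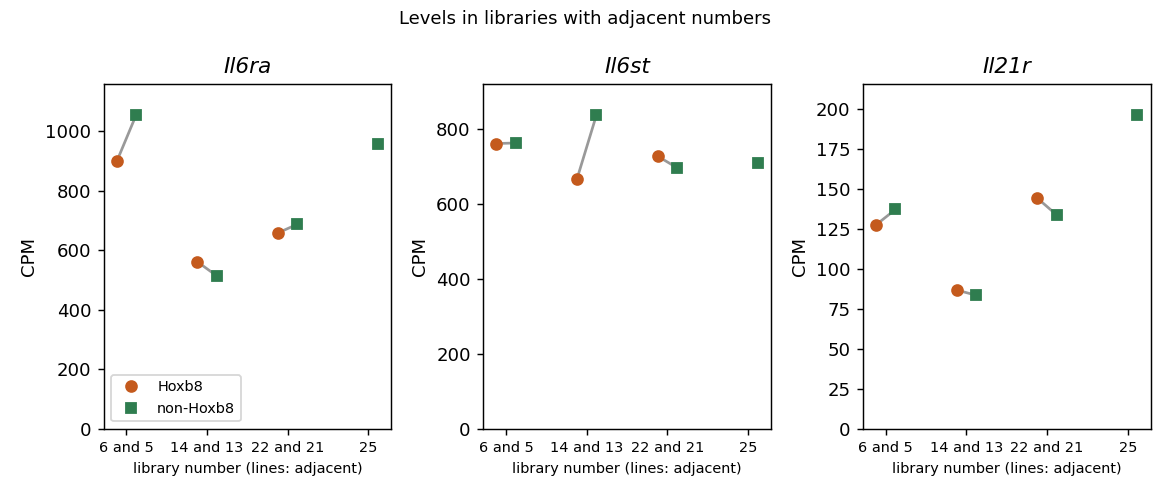
CPM of Il6ra, Il6st and Il21r (vertical axes, from 0) in libraries with adjacent numbers, Hoxb8 (circles) left of non-Hoxb8 (squares) and joined by a line, with library 25 alone. Il6ra and Il21r are lowest in libraries 14 and 13, at 561 and 514 CPM for Il6ra, while Il6st stays between 667 and 837 CPM.

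Both chains of the IL-10 receptor were abundant in both groups. Il10ra stood at 294, 289 and 352 CPM in Hoxb8 libraries and at 303, 291, 288 and 320 CPM in non-Hoxb8 libraries, and 5 of the 7 values lay between 288 and 303. The log2 fold change was 0.05 ± 0.15 (95% interval -0.27 to 0.38). Il10rb, the signalling chain that the receptors of IL-22 and the lambda interferons share, stood at 122, 116 and 77.1 CPM in Hoxb8 libraries and at 102, 86.5, 83.7 and 82.3 CPM in non-Hoxb8 libraries. Hoxb8 replicates 1 and 2 were above all non-Hoxb8 libraries and replicate 3 was below them, for a log2 fold change of 0.24 ± 0.22. Il10rb shares 14.9% of its exon bases with the predicted gene Gm21970, which leaves part of its count uncertain. The related chains Il20rb, part of the receptors of IL-20, and Il22ra2, a secreted decoy that binds IL-22, had 35 and 16 counts over all libraries and were not tested.

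RNA of the chains that bind IL-4 and IL-13 was abundant in both groups. Il13ra1, which binds IL-13 and pairs with Il4ra, stood at 209, 185 and 227 CPM in Hoxb8 libraries and at 171, 207, 167 and 186 CPM in non-Hoxb8 libraries (log2 fold change 0.18 ± 0.17, 95% interval -0.18 to 0.54). Il4ra, the IL-4 binding chain, averaged 109 ± 12.6 CPM in Hoxb8 libraries (SD, n = 3) and 118 ± 28.2 CPM in non-Hoxb8 libraries (SD, n = 4), with a log2 fold change of -0.12 ± 0.22. Il13ra1 exceeded Il4ra per length in every library, by 2.46 to 3.52 times in Hoxb8 libraries and by 1.81 to 3.32 times in non-Hoxb8 libraries.

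Among chains of the IL-2 group the ligand-specific chains Il7r and Il21r were far above the shared chain Il2rg. Il7r, which binds IL-7 and, with Crlf2, the cytokine TSLP, averaged 147 ± 16.8 CPM in Hoxb8 libraries (SD, n = 3) and 142 ± 19.8 CPM in non-Hoxb8 libraries (SD, n = 4), a log2 fold change of 0.05 ± 0.19. Il21r, which binds IL-21, stood at 127, 86.7 and 144 CPM in Hoxb8 libraries and at 137, 83.4, 134 and 196 CPM in non-Hoxb8 libraries. Like Il6ra it was lowest in libraries 14 and 13. Its log2 fold change was -0.20 ± 0.26, and 0.02 ± 0.19 with the pairs. Without pairs and without library 25, where Il21r was highest, it was also 0.02 ± 0.26. Il2rg, the common gamma chain, stood at 1.87, 28.1 and 12.9 CPM in Hoxb8 libraries and at 10.6, 8.28, 3.53 and 3.95 CPM in non-Hoxb8 libraries. Hoxb8 replicate 1 was the lowest and Hoxb8 replicate 2 the highest of the 7, so the Hoxb8 libraries enclosed the whole other group. The log2 fold change of Il2rg was 1.11 ± 0.70, 0.16 ± 0.78 without Hoxb8 replicate 2, 0.29 ± 0.89 without libraries 13 and 14, and 0.66 ± 1.02 without libraries 21, 22 and 25. Per length, Il7r exceeded Il2rg by 2.62 to 45.3 times in Hoxb8 libraries and by 7.45 to 19.7 times in non-Hoxb8 libraries. Il2rg shares 30.5% of its exon bases with the predicted gene Gm20489, and reads there may not have been assigned to it.

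Il15ra, which binds IL-15 and presents it to neighbouring cells, was the chain with the lowest p among those lower in Hoxb8 libraries. It stood at 19.4, 11.1 and 11.3 CPM in Hoxb8 libraries and at 26.0, 12.7, 29.5 and 37.6 CPM in non-Hoxb8 libraries. All non-Hoxb8 libraries but replicate 2 (library 13) were above all Hoxb8 libraries, and in each pair of adjacent libraries the Hoxb8 library was the lower. The log2 fold change of Il15ra was -0.92 ± 0.42 (95% interval -1.81 to -0.04, unadjusted p = 0.042, edgeR adjusted p = 0.9996). With the pairs, which leave library 25 unused, it was -0.67 ± 0.40. Without pairs it was -0.71 ± 0.44 without library 25, and -0.35 ± 0.61 without libraries 21, 22 and 25. The ligand Il15 stood at 17.1, 31.0 and 31.0 CPM in Hoxb8 libraries and at 20.9, 25.7, 26.1 and 23.5 CPM in non-Hoxb8 libraries. Il2ra, the high-affinity IL-2 chain, lies on chromosome 2 just before Il15ra, 12096 bases away on the same strand, and was nearly absent. It had 9, 2 and 3 counts in Hoxb8 libraries and 0 in each of the 4 non-Hoxb8 libraries, so that Hoxb8 replicate 1 alone gave 64.3% of its reads. It did not pass the filter on low counts, and in the fit without that filter its unadjusted p was 0.027 and its edgeR adjusted p 0.97. These counts are too few to describe the cells that hold them.

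The IL-1 group held the chain with the lowest p of the 19 tested. Il1r1, the signalling receptor of IL-1, stood at 12.6, 8.37 and 3.91 CPM in Hoxb8 libraries and at 1.1, 4.71, 2.41 and 2.40 CPM in non-Hoxb8 libraries. Hoxb8 replicates 1 and 2 were above every non-Hoxb8 library and replicate 3 was below non-Hoxb8 replicate 2. The log2 fold change was 1.63 ± 0.72 (95% interval 0.10 to 3.16, unadjusted p = 0.038, edgeR adjusted p = 0.9996), 1.6 ± 0.86 with the pairs and 1.20 ± 0.90 without Hoxb8 replicate 1. It was 2.05 ± 0.93 without libraries 13 and 14 and 1.84 ± 0.94 without libraries 21, 22 and 25. In each pair of adjacent libraries the Hoxb8 library was the higher. The counts behind these values were 94, 62 and 29 in Hoxb8 libraries and 8, 37, 15 and 14 in non-Hoxb8 libraries. Summed border macrophage markers stood at 739, 1531 and 348 CPM in Hoxb8 libraries and at 156, 214, 88.7 and 373 CPM in non-Hoxb8 libraries, and monocyte markers were higher in each Hoxb8 library than in any non-Hoxb8 library. Their part in the level of Il1r1 was not tested. Endothelial markers, of cells that also carry this receptor, summed to between 40.1 and 62.2 CPM in Hoxb8 libraries and between 35.8 and 59.3 CPM in non-Hoxb8 libraries (5 of 6 genes measured, 0 of 4 tested called, Cldn5 at 0 in all but Hoxb8 replicate 2).

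Il1rap, the accessory chain that IL-1, IL-33 and IL-36 receptors all need, was also scarce, and its level per length depended on the gene model (0.89 CPM per kilobase over all libraries with the union of exons, 2.23 with the longest transcript). The ratio of Il1r1 to Il1rap per length, with the union of exons, ranged from 0.62 to 2.43 in Hoxb8 libraries and from 0.18 to 1.5 in non-Hoxb8 libraries, and the groups overlapped. Il1rap averaged 10.5 ± 1.12 CPM in Hoxb8 libraries (SD, n = 3) and 9.77 ± 3.67 CPM in non-Hoxb8 libraries (SD, n = 4), a log2 fold change of 0.10 ± 0.49. RNA of the chains that bind IL-33 and IL-36 was more abundant than that of Il1r1 per length. Il1rl1, the ST2 chain that binds IL-33, stood at 50.8, 12.3 and 31.0 CPM in Hoxb8 libraries and at 13.2, 13.8, 25.8 and 24.2 CPM in non-Hoxb8 libraries. Libraries 14, 13 and 5 were alike and low, and Hoxb8 replicates 1 and 3 were the highest. The log2 fold change was 0.71 ± 0.44, 0.17 ± 0.48 without Hoxb8 replicate 1 1.09 ± 0.41 without Hoxb8 replicate 2 and 1.22 ± 0.65 without libraries 21, 22 and 25. Of markers of mast cells, which carry ST2, Kit was at 0 in all libraries and Gata2 stood between 0 and 2.54 CPM in Hoxb8 libraries and between 0.16 and 2.06 CPM in non-Hoxb8 libraries (2 of 6 measured). Il1rl2, which binds IL-36, stood at 41.7, 28.6 and 24.4 CPM in Hoxb8 libraries and at 12.9, 24.5, 31.6 and 30.4 CPM in non-Hoxb8 libraries, and the groups overlapped widely (log2 fold change 0.35 ± 0.36, and 0.91 ± 0.51 without libraries 21, 22 and 25).

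**Figure D4:**
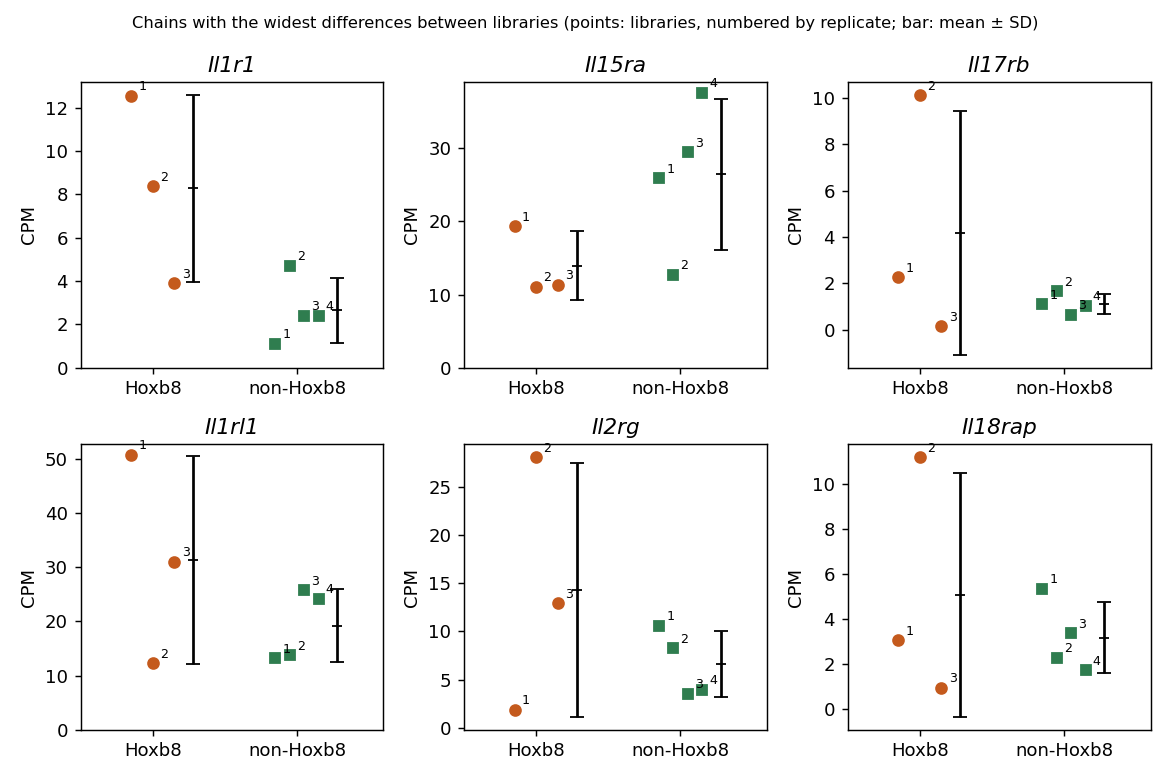
CPM in each library (points, numbered by replicate) with mean and SD (bars) for Il1r1, Il15ra, Il17rb, Il1rl1, Il2rg and Il18rap, Hoxb8 left of non-Hoxb8. Il17rb, Il2rg and Il18rap are highest in Hoxb8 replicate 2, at 10.1, 28.1 and 11.2 CPM, and for all 6 chains the groups overlap.

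In Hoxb8 replicate 2 (library 14) several scarce chains stood far above the other libraries. Il17rb, which binds IL-25, stood at 2.27, 10.1 and 0.13 CPM in Hoxb8 libraries and at 1.1, 1.66, 0.64 and 1.03 CPM in non-Hoxb8 libraries (log2 fold change 1.89 ± 1.1, and 0.12 ± 1.44 without Hoxb8 replicate 2). Il18rap, the accessory chain of the IL-18 receptor, stood at 3.07, 11.2 and 0.94 CPM in Hoxb8 libraries and at 5.36, 2.29, 3.37 and 1.72 CPM in non-Hoxb8 libraries (log2 fold change 0.67 ± 0.87, -0.66 ± 1.09 without Hoxb8 replicate 2, and -0.80 ± 1.16 without libraries 13 and 14). Il1r2, the decoy that binds IL-1 without signalling, had 0, 67 and 4 counts in Hoxb8 libraries and 0, 10, 0 and 0 counts in non-Hoxb8 libraries, so that 82.7% of its reads came from library 14 and the next most from library 13. Il22ra2 had 15 counts in library 14 and 1 count in non-Hoxb8 replicate 1. Il27ra, which pairs with gp130 for IL-27, had 0, 18 and 0 counts in Hoxb8 libraries and 1, 6, 6 and 2 counts in non-Hoxb8 libraries. Il17rd, a relative known for restraining growth factor signals, had 10 counts, all in library 13.

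Markers of other cells are given for the same libraries, and their part in the level of these chains was not tested. Border macrophage markers, given above, summed highest in library 14, and monocyte markers summed to 337, 682 and 309 CPM in Hoxb8 libraries and to 136, 202, 124 and 150.5 CPM in non-Hoxb8 libraries. Of T and NK lymphocyte markers only Cd4, Cd8a and Klrb1c were measured (3 of 10 genes), without Cd3e, Cd3d, Cd3g, Trac, Cd2, Nkg7 and Ncr1. Their sum lay between 3.10 and 32.5 CPM in Hoxb8 libraries and between 0.32 and 5.08 CPM in non-Hoxb8 libraries. The sum in Hoxb8 replicate 2 was mostly Cd4, at 28.1 CPM, against 2.83 CPM for Cd8a and 1.62 CPM for Klrb1c. Elsewhere Cd4 stood at or below 4.94 CPM. Measured markers are too few to tell whether lymphocytes were present. Of neutrophil markers (6 of 8 measured), S100a8 and S100a9 were at 0 in all libraries but Hoxb8 replicate 3 (0.67 and 2.43 CPM), and Cxcr2 was at 0 in all libraries. The neutrophil sum lay between 594 and 642 CPM in Hoxb8 libraries and between 627 and 746 CPM in non-Hoxb8 libraries, nearly all of it Csf3r. Without libraries 13 and 14, 0 of the chains tested were called.

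**Figure D5:**
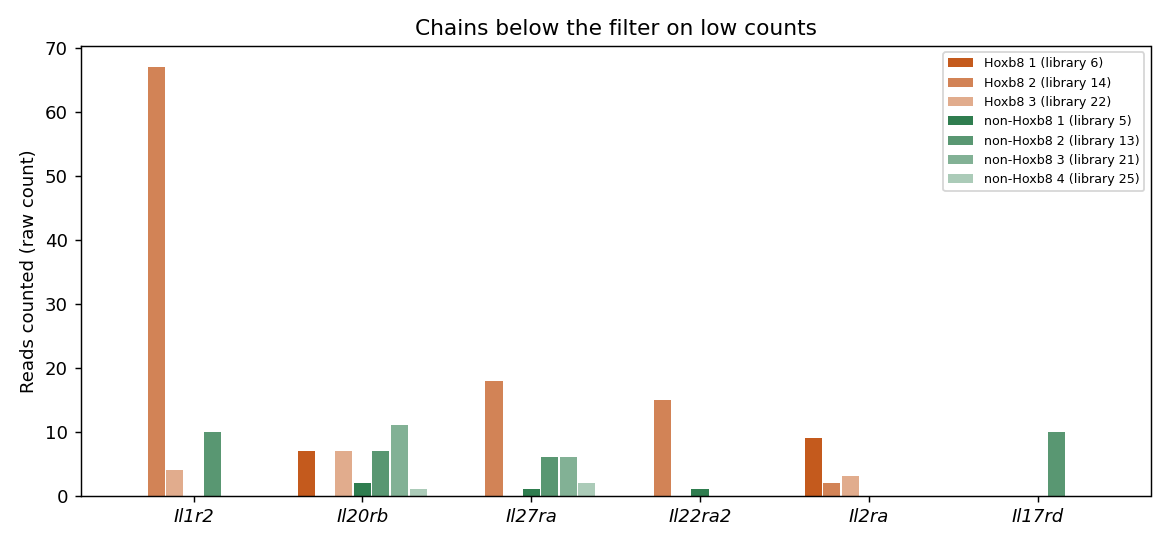
Reads counted for the 6 chains below the filter on low counts (vertical axis, raw counts from 0) in each Hoxb8 and non-Hoxb8 library. Il1r2 reaches 67 counts in Hoxb8 replicate 2, and Il2ra has 9, 2 and 3 counts in Hoxb8 libraries and none in non-Hoxb8 libraries.

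The remaining chains of the IL-17 and IL-12 groups did not set the groups apart. Il17ra, the chain that IL-17 receptors share, was the steadiest of the 19 tested chains, at 325, 320 and 343 CPM in Hoxb8 libraries and at 320, 290.0, 334 and 307 CPM in non-Hoxb8 libraries, a coefficient of variation of 5.45% over all 7. Its log2 fold change was 0.08 ± 0.15 (95% interval -0.24 to 0.39). Il12rb2, a signalling chain of the IL-12 receptor, averaged 8.98 ± 3.95 CPM in Hoxb8 libraries (SD, n = 3) and 9.97 ± 3.05 CPM in non-Hoxb8 libraries (SD, n = 4), with a log2 fold change of -0.15 ± 0.52, and -0.76 ± 0.72 without libraries 21, 22 and 25. It shares 40.0% of its exon bases with Serbp1 on the opposite strand, and reads without strand cannot be told apart there.

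Several of the chains described here lie near one another on a chromosome. Only these chains were placed, so other genes, including receptor chains without a row, may lie between them. In GRCm38 (GENCODE M21), 5 chains of the IL-1 group lie on the plus strand of chromosome 1. Their order runs from Il1r2 (start 40074079) through Il1r1, Il1rl2 and Il1rl1 to Il18rap (end 40551705). Their means over all libraries ran from 0.59 per kilobase for Il18rap to 4.07 for Il1rl2. On chromosome 7, Il4ra (125552120 to 125579474) and Il21r (125603429 to 125633570) lie 23954 bases apart, and both were abundant, whereas Il2ra and Il15ra on chromosome 2 differed in level. Il6ra spans chromosome 3 from 89864059 to 89913196 and Il6st chromosome 13 from 112464070 to 112510086.

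The rest of the pathway was likewise without a called gene in edgeR without pairs. Of interleukins and their binding proteins, 0 of 12 tested genes were called (10 above 0 and 2 below). Their median log2 fold change was 0.51, and 0.28 with the pairs, against 0.00 over all genes tested. Il1a, Il1b, Il1rn, Il6, Il10, Il12b, Il15 and Ebi3 were highest in Hoxb8 replicate 2, and Il16, Il18, Il18bp and Il33 in other libraries. With the pairs, 1 of the 12 was called, Il1b, with a log2 fold change of 1.08 ± 0.19 (edgeR adjusted p = 0.0020) that compares libraries within pairs whose levels differ widely, against 1.58 ± 2.28 without the pairs. Of partner chains outside the naming rule, such as Lifr, Csf2ra and Ifngr1, 0 of 8 tested were called (median 0.04). Csf2rb, the beta chain shared by IL-3, IL-5 and GM-CSF receptors, stood at 199, 152 and 202 CPM in Hoxb8 libraries and at 237, 133, 199.8 and 209 CPM in non-Hoxb8 libraries (log2 fold change -0.08 ± 0.21). It too was lowest in libraries 14 and 13, and it has a close copy, Csf2rb2, with which reads may be shared.

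Downstream, 0 of 10 JAK and STAT genes were called (5 above 0 and 5 below, median 0.07). Stat3, the factor that IL-6 and IL-10 receptors activate, stood at 161, 243 and 143 CPM in Hoxb8 libraries and at 164, 248, 142 and 192 CPM in non-Hoxb8 libraries, highest in libraries 13 and 14. Of SOCS and other inhibitors, 0 of 15 were called (6 above 0 and 9 below, median -0.07). Socs3, the feedback inhibitor of gp130, stood at 23.9, 136 and 19.4 CPM in Hoxb8 libraries and at 40.5, 132, 12.5 and 122 CPM in non-Hoxb8 libraries, and the groups overlapped. Of IL-1 and IL-17 receptor adaptors, 0 of 14 were called (7 above 0 and 7 below, median 0.00). Irak1, a kinase of the IL-1 receptor complex, was the gene of this list whose groups did not overlap, at 168, 167 and 166 CPM in Hoxb8 libraries and at 161, 159, 153 and 136 CPM in non-Hoxb8 libraries (log2 fold change 0.13 ± 0.17, edgeR adjusted p = 0.9996). Of all genes tested, 2.48% were likewise higher in every Hoxb8 library than in any non-Hoxb8 library, so this does not single out Irak1. Traf3ip2, the adaptor of IL-17 receptors, named here after its values were seen, had a log2 fold change of -1.50 ± 0.60 (unadjusted p = 0.024, edgeR adjusted p = 0.9996).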

How the data were processed

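RNA of sorted cortical microglia was prepared with a Clontech low-input kit, read single-ended (50 bp, strand not kept) and mapped with STAR 2.4.1c on GRCm38 with GENCODE M5, per the labels' protocols. Further tools listed in the submitters' processing notes are featureCounts, Subread and DESeq2. The authors deposited raw counts, with 1 row per gene symbol and 1 column per library. Of 14616 rows, 22 with names turned into numbers were left out (0.120% to 0.151% of counts per library).

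The main test was the robust quasi-likelihood test of edgeR 4.0.16 (R 4.3.3), after filterByExpr and TMM, over 11874 genes with Benjamini-Hochberg adjustment at 0.05. The test was tried on simulated counts with known changes, drawn independently for each library. Deviations that libraries share were not simulated, so the trial does not show how the test behaves under them. Standard errors were derived from the log2 fold change and its F statistic (absolute change over root F). Replicate numbers only name libraries. Libraries with adjacent numbers deviated together (correlations 0.18, 0.28 and 0.19, each over 0.1), so a fit with these pairs was added, although the labels state no pairing. Correlations between other libraries are not given, so these values do not show that adjacent libraries were more alike than others. The same counts served for the correlations and for the paired fit. In that fit library 25 stood alone and did not count towards the group difference. Alternatives were DESeq2 1.42.0, limma-voom (3.58.1), other normalisations, no filter, and left-out libraries. Every pair of libraries differed beyond counting noise (lowest chi-square over its degrees of freedom 17.1). Values in every library are given for chains with the 10 lowest p or the 6 highest levels per length, and for chains below the filter as counts. The chains and gene lists were chosen with earlier results of these data known.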

Additional observations from a re-analysis of the deposited data

How the results depend on the processing

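No interleukin receptor chain was called under any of the 15 alternatives. The number of genes higher in the whole table, 4 as reported, was 20 with DESeq2, 0 with limma-voom, 43 with the replicate block of adjacent library numbers, 2 without libraries 13 and 14, 0 without libraries 21, 22 and 25, and between 0 and 6 when 1 library was left out (0 without non-Hoxb8 replicate 1, 2 without Hoxb8 replicate 2). The number lower, 0 as reported (187 at an unadjusted p below 0.05), was 4 with DESeq2 and 0 with limma-voom. The replicate block called 1 pathway gene, Il1b, against 0 without it, and it changed no call of a chain.

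Directions changed in 16 of 283 log2 fold changes, all of uncalled chains, and the cause was not tested. With the replicate block, Il18rap went to -0.14 and Il21r to 0.020. Without libraries 13 and 14, Il18rap was -0.80, Il1rap -0.13, Il6st 0.035 and Il7r -0.0060, and without libraries 21, 22 and 25 Il10ra was -0.030. Leaving out 1 library gave ranges of -0.043 to 0.10 for Il10ra, -0.43 to 0.16 for Il12rb2, -0.66 to 1.16 for Il18rap, -0.088 to 0.33 for Il1rap, -0.38 to 0.017 for Il21r, -0.23 to 0.030 for Il4ra and -0.038 to 0.15 for Il7r. Il1r1 stayed above 0 (1.20 to 2.07) and Il15ra below 0 (-1.24 to -0.35) in all 15. Il17rb fell below the filter without non-Hoxb8 replicate 2 and without libraries 13 and 14, and has no value there. With the longest transcript in place of the union of exons, 9 of the 25 levels per length moved by more than their SD, and no chain moved by more than 1 place in the order.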
